A study of Mus musculus with 16 samples.

Results

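The 10 genes described here encode the 3 superoxide dismutases (Sod1, Sod2 and Sod3), catalase (Cat), the transcription factor NRF2 (Nfe2l2) and 5 genes that NRF2 is known to control (Gclc, Gclm, Slc7a11, Srxn1 and Txnrd1). They were taken by gene symbol from tables of 54532 genes, and all 10 were found and passed the filter on low values, a mean of at least 0.5 FPKM, in both comparisons. Slc7a11 passed in LPS against saline only through the LPS libraries, where it is high. In pulmonary endothelial cells (ECs) of LPS-treated mice, Sod2, Slc7a11, Srxn1, Txnrd1, Nfe2l2 and Gclm were higher than in saline-treated mice, Sod3 was lower, and Sod1, Gclc and Cat did not pass the test. Of all genes tested in that comparison, 29.5% were called higher and 23.7% lower. Between LPS-treated mice with and without the endothelial deletion of Fgfr1, none of the 10 passed the test. Nor did any of all 14945 genes tested, Fgfr1 included.

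Superoxide dismutases turn superoxide into hydrogen peroxide, SOD1 mainly in the cytosol, SOD2 in the mitochondrial matrix and SOD3 outside the cell, where it binds to the vessel wall. Catalase then breaks the peroxide down. NRF2 is held at a low level by KEAP1, which hands it to a ubiquitin ligase, and oxidants or electrophiles release it to bind antioxidant response elements, together with small MAF proteins, at genes of glutathione synthesis and thiol reduction.

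In the first experiment, male WT mice on the C57/BL6J background, aged 8 weeks, received saline (n = 4) or 10 mg/kg LPS (n = 6) into the trachea. LPS, a lipopolysaccharide of the bacterial outer membrane, is used in this way to model acute lung injury. In the second, Fgfr1 loxP/loxP mice (labelled wt, n = 3) and Fgfr1 iΔEC/iΔEC mice (labelled cko, n = 3) all received 2 mg/kg LPS, so that no saline group stands beside them. Deletion was driven by a tamoxifen-inducible Cre under the VE-cadherin promoter, which is active in vascular and lymphatic endothelium, and the loxP/loxP mice received tamoxifen too. These mice were adult, and a more exact age was not given in the sources used here. In both, lung cells were taken after 24 h, depleted of CD45+ cells and selected on CD31 with magnetic beads, and bulk RNA-seq was deposited as FPKM, a value scaled to gene length and library size. The reads counted on genes came to 13478726 to 18807007 in the saline, 17840221 to 19043015 in the LPS, 15969575 to 17002788 in the wt and 16642177 to 16943522 in the cko libraries. The labels name separate samples and do not say more of their origin, so p-values measure the spread between these libraries. The tables were scaled separately, and tests were made only within each of them.

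Fgfr1, the deleted gene, was read first. Its FPKM was 2.90, 2.91 and 2.60 in the wt and 0.682, 1.41 and 1.15 in the cko libraries, so that the groups were apart in the direction of the labels, with a log2 fold change of -0.88 ± 0.16 (SE). Its adjusted p was 0.962 over all genes (limma with Benjamini-Hochberg adjustment). Of the sort markers, Pecam1, which encodes CD31, had 234 to 516 FPKM in every library of the first experiment, and its groups overlapped. Cdh5, which encodes VE-cadherin, had 669 to 792 FPKM in saline and was lower in LPS, at 245 to 519.9 FPKM, without overlap (log2 fold change -0.88, limma adjusted p = 0.00575). Ptprc, which encodes CD45, was read in every library in spite of the depletion, at 3.53 to 11.0 FPKM in saline and 22.1 to 52.7 FPKM in LPS (log2 fold change 2.19, limma adjusted p = 1.12e-04).

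Saline 1 stood apart from the other saline libraries in many values. It had the fewest reads, the highest Gclc, Srxn1, Txnrd1 and Slc7a11 of its group, and the highest summed neutrophil markers (1374 FPKM against 68.9 to 300.2 FPKM in the other 3). It also had the highest Hmox1, Gsr, Fth1 and Gpx1 and the lowest Keap1 and Ephx1 of its group, so that it sets an end of the saline ranges given for them. Saline 3 had the lowest lymphocyte and fibroblast markers of its group. Without saline 1 the log2 fold changes of LPS over saline were 2.99 for Sod2, -1.02 for Sod3, 1.21 for Nfe2l2, 0.57 for Gclm, 1.73 for Srxn1, 1.78 for Txnrd1 and 3.23 for Slc7a11, and each of these genes still passed the test (limma, Benjamini-Hochberg adjustment).

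Promoters are shown for the genes whose sequence can be read beside their response, as RefSeq gives them on GRCm38.p6, 250 bases before to 50 bases after a transcription start. They matched 8 of the 10 genes, with 10 promoters, and not Sod3 and Gclc. Searched on both strands were the core of the antioxidant response element, TGACNNNGC, the AP-1 site TGANTCA, which can overlap it, and the NF-kB site. The core was found in at least 1 promoter of 5 of the 8 genes, against 12.4% of all 32851 promoters of this length, AP-1 in 1 (7.81% of all) and NF-kB in 2 (8.46% of all). These shares are per single promoter, whereas a gene with more than 1 promoter had more than 1 chance of a match. Capitals mark the match in the windows, which run 5′ to 3′ on the strand of the gene.
Nfe2l2 (chr2:75704870-75704913, minus strand): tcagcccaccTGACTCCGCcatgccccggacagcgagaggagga
Gclm (chr3:122245398-122245456, plus strand): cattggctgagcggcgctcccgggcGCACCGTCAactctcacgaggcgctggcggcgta
Txnrd1 (chr10:82859089-82859147, plus strand): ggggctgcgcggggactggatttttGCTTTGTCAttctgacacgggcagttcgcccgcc
Srxn1 (chr2:152105397-152105510, plus strand): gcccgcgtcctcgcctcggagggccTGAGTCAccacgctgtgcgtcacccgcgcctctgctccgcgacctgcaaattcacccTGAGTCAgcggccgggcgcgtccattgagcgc
Sod1 (chr16:90220681-90220739, plus strand): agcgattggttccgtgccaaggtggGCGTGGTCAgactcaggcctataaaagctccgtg
Sod2 (chr17:13007731-13007790, plus strand): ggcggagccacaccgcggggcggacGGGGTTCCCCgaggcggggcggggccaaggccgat
Cat (chr2:103485235-103485294, minus strand): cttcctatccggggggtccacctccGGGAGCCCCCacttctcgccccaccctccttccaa
In Nfe2l2, Gclm, Txnrd1 and Sod1 the capitals are the antioxidant response core, which begins 240, 134, 92 and 56 bases before the start. In Srxn1 they are 2 AP-1 sites 102 and 45 bases before the start, and a core lies after the start. In Sod2 and Cat they are the NF-kB site, 83 and 116 bases before the start. The starts used for Txnrd1 and Sod2 lie far inside the annotated gene, and those for Sod1, Srxn1 and Cat a few bases inside it. Responses were not compared between genes by their matches. A match is a description of these letters and was not tested as a site. In the Slc7a11 promoter none of the 3 was found.

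The 3 dismutases took different courses in LPS. Sod2 (chr17:13006846-13040063, plus strand, GRCm38), the mitochondrial manganese enzyme, had 4.77, 4.10, 5.21 and 4.62 FPKM in saline 1 to 4 and from 27.7 to 61.9 FPKM in the LPS libraries, with a median of 46.1 FPKM. The lowest LPS library stood far above the highest saline library, and the saline libraries lay close together, saline 1 included. The means were 45.1 ± 12.2 FPKM (SD, n = 6) in LPS and 4.67 ± 0.460 FPKM (SD, n = 4) in saline, 9.65-fold higher in LPS (log2 fold change 2.98 ± 0.20 SE, limma adjusted p = 1.35e-06). Across all 14893 genes tested, 29.5% were called higher in LPS and 23.7% lower (adjusted p of 0.05 or less), so 6 higher and 1 lower of 10 is to be read against a comparison in which most genes tested were called. This background hung on the scaling, with 4399 genes higher and 3529 lower as scaled here, 3464 and 4678 on equal total reads (median of all genes -0.15), 3570 and 4295 on quantile normalization, and 7274 and 798 on the endothelial marker list (median 0.57). Groups that did not overlap were found for 6 of the 10 and for 39.4% of all genes. Slc7a11, counted among the 6 higher and among these 6, entered the test only through the LPS libraries. The median log2 fold change was 0.80 over the 10 genes and 0.01 over all genes tested.

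Sod3 (chr5:52363791-52371418, plus strand), the secreted enzyme, went the other way. It had 30.4, 27.2, 20.1 and 26.4 FPKM in saline 1 to 4 and 6.95 to 17.0 FPKM in LPS, with a median of 12.1 FPKM. All 6 LPS libraries were below all 4 saline libraries. The means were 12.0 ± 3.61 FPKM (SD, n = 6) and 26.0 ± 4.34 FPKM (SD, n = 4), 2.17-fold lower in LPS (log2 fold change -1.09 ± 0.21 SE, limma adjusted p = 0.00153). On endothelial scaling Sod3 moved to -0.42, still below the median of all genes, and no longer passed the test (limma adjusted p = 0.0722).

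Sod1 (chr16:90220754-90226329, plus strand, overlapping Scaf4 on the other strand), the cytosolic copper and zinc enzyme, was by mean FPKM the most abundant of the 10 genes in all 4 groups. Its level was 53.8, 38.7, 46.7 and 38.9 FPKM in saline 1 to 4 and 46.4 to 101.2 FPKM in LPS, with a median of 60.3 FPKM. The groups overlapped, LPS 1, LPS 3 and LPS 6 lying below saline 1. The log2 fold change was 0.49 ± 0.22 (SE) and did not pass the test (limma adjusted p = 0.0749), although it did on endothelial scaling (1.20) and without LPS 3 (0.57).

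**Figure D1:**
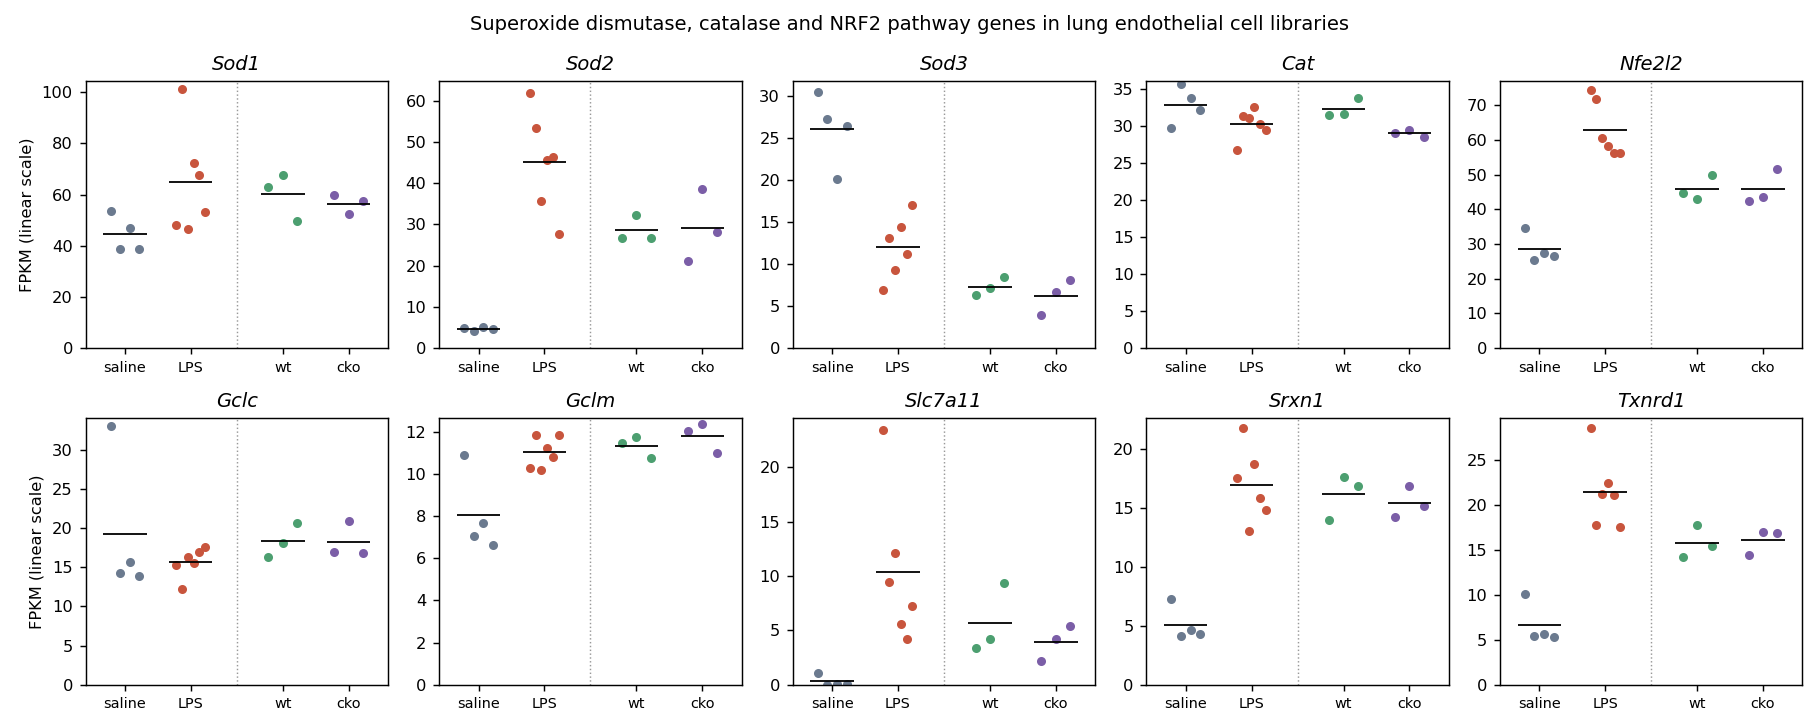
FPKM of the 10 genes on linear axes, 1 point per library and the group mean as a line, for saline (n = 4), LPS (n = 6), wt (n = 3) and cko (n = 3); the dotted line parts the tables, which were scaled separately. The saline and LPS points are apart for Sod2, Sod3, Nfe2l2, Slc7a11, Srxn1 and Txnrd1, and the wt and cko points overlap in all panels but Cat.

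The makeup of the dismutase transcripts followed from these values. Of the summed FPKM of the 3 genes in a library, Sod2 held 5.37% to 7.23% in saline and 28.3% to 52.9% in LPS, while Sod3 held 27.9% to 38.9% in saline and 5.94% to 17.4% in LPS. Sod1 held 55.3% to 64.9% and 41.1% to 60.4%. By FPKM, and so by the gene lengths used, Sod3 was thus the second dismutase in every saline library. Sod2 was second in every LPS library but LPS 1, where it came first. The sum itself was 75.2 ± 9.20 FPKM (SD, n = 4) in saline and 121.9 ± 27.4 FPKM (SD, n = 6) in LPS.

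**Figure D2:**
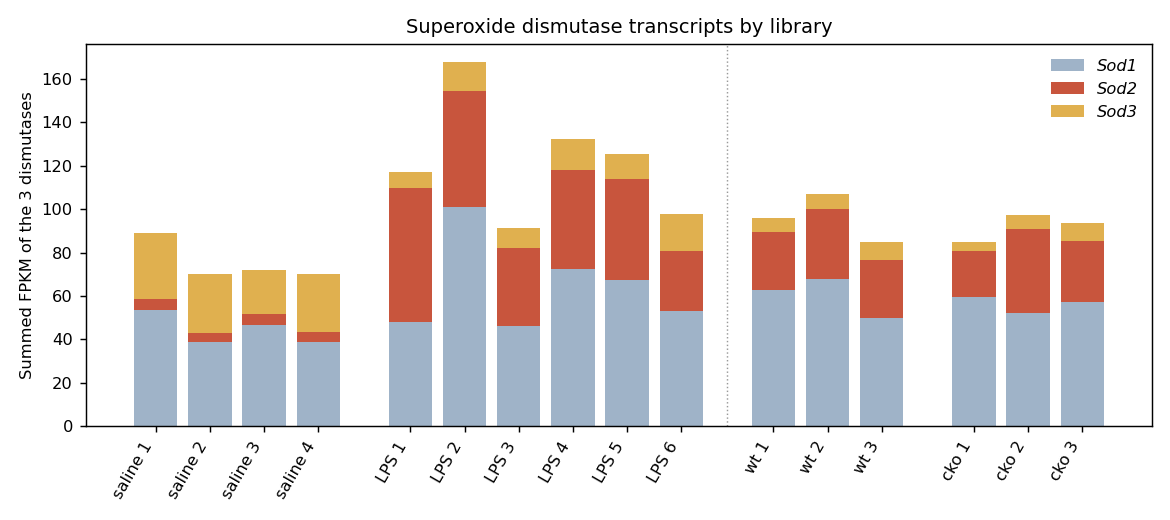
Stacked bars of the FPKM of Sod1, Sod2 and Sod3, 1 bar per library, on a linear axis from 0; the dotted line parts the separately scaled tables. The Sod2 part is thin and the Sod3 part broad in the 4 saline bars, and the reverse in the LPS, wt and cko bars.

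The ratio of Sod2 to Sod1 within a library does not move when the library is scaled by a single factor, though quantile normalization can move it. It was 0.0888, 0.106, 0.111 and 0.119 in saline 1 to 4 and 0.522 to 1.29 in LPS, with a median of 0.660. The groups did not overlap, and the geometric mean was 6.64-fold higher in LPS (difference in log2 ratio 2.73, two-sided exact permutation test, p = 0.00476, and 0.00952 after Benjamini-Hochberg adjustment over 4 tests). LPS 1, at 1.29, set the top of the range, the next library being at 0.767.

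Cat (chr2:103453849-103485160, minus strand), the peroxisomal enzyme that takes up the product of the dismutases, was nearly level. It had 29.7, 35.6, 33.8 and 32.2 FPKM in saline 1 to 4 and 26.7 to 32.5 FPKM in LPS, with a median of 30.6 FPKM. The groups overlapped, and the log2 fold change was -0.12 ± 0.10 (SE, 95% CI -0.33 to 0.10, limma adjusted p = 0.334). Its direction hung on the scaling, with -0.31 on equal total reads and -0.53 on quantile normalization, both past the test, and 0.58 on endothelial scaling, past the test in the other direction.

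Nfe2l2 (chr2:75675513-75704641, minus strand), which encodes NRF2 itself, had 34.6, 25.5, 27.4 and 26.7 FPKM in saline 1 to 4 and 56.2 to 74.5 FPKM in LPS, with a median of 59.4 FPKM. The groups were well apart. The means were 62.9 ± 8.14 FPKM (SD, n = 6) and 28.5 ± 4.09 FPKM (SD, n = 4), 2.21-fold higher in LPS (log2 fold change 1.12 ± 0.13 SE, limma adjusted p = 5.45e-05). Keap1, whose protein holds NRF2 down, had 12.3 to 17.3 FPKM in LPS and 12.6 to 16.1 FPKM in saline, and its log2 fold change of 0.10 did not pass the test (limma adjusted p = 0.528). On endothelial scaling it was 0.77 and passed (limma adjusted p = 0.00390), and on equal total reads and quantile normalization it was negative.

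Among the genes of glutathione synthesis, the modifier and the catalytic subunit of glutamate-cysteine ligase parted. Gclm (chr3:122245557-122270732, plus strand), the modifier, had 10.9, 7.05, 7.66 and 6.62 FPKM in saline 1 to 4 and 10.2 to 11.9 FPKM in LPS, with a median of 11.0 FPKM. Only saline 1 reached into the LPS range. The log2 fold change was 0.43 ± 0.13 (SE, limma adjusted p = 0.0163), and it did not pass without saline 2 (0.38) or saline 4 (0.35), on equal total reads (0.25) or on quantile normalization (0.28).

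Gclc (chr9:77754535-77794485, plus strand), the catalytic subunit, had 33.0, 14.3, 15.7 and 13.9 FPKM in saline 1 to 4 and 12.3 to 17.6 FPKM in LPS, with a median of 15.9 FPKM. Saline 1 was above every LPS library, and the other 3 saline libraries lay within the LPS range. The log2 fold change of -0.19 ± 0.22 (SE) did not pass the test (limma adjusted p = 0.468) and became 0.09 without saline 1. The ratio of Gclm to Gclc was 0.331, 0.494, 0.489 and 0.477 in saline and 0.624 to 0.966 in LPS, without overlap. It was 1.60-fold higher in LPS (difference in log2 ratio 0.68, two-sided exact permutation test, p = 0.00476, adjusted p = 0.00952 over the same 4 tests). Saline 1 lay below the other saline libraries in this ratio. Leaving out each library in turn, the difference in log2 ratio ran from 0.54 to 0.73.

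Slc7a11 (chr3:49892526-50443614, minus strand) encodes the exchanger that imports cystine, the source of cysteine for glutathione. By mean FPKM it was the least abundant of the 10 genes in each group, with 1.06, 0.0260, 0.0885 and 0.0584 FPKM in saline 1 to 4, or 195, 8, 22 and 16 reads. In LPS it had 4.19 to 23.4 FPKM with a median of 8.38 FPKM, or 1048 to 5999 reads. Every LPS library was above saline 1, and the other 3 saline libraries were lower again by a wide margin. Its saline mean of 0.308 FPKM lay below the filter of 0.5 FPKM. It was thus tested only because of its level in LPS, and its p-value is to be read with that. The log2 fold change was 2.99 ± 0.39 (SE, limma adjusted p = 1.05e-04) on log2(FPKM + 1), a scale that understates the change of a gene near 0. It was 5.11 with a pseudocount of 0.1 and 6.46 by limma-voom on the read numbers. Relative to its mean, Slc7a11 had the widest spread of the 10 genes among the LPS libraries, with a mean of 10.3 ± 6.99 FPKM (SD, n = 6).

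Of the 10 genes, Srxn1 and Txnrd1 act in thiol reduction. Srxn1 (chr2:152105516-152111376, plus strand), sulfiredoxin, which restores overoxidized peroxiredoxins, had 7.32, 4.10, 4.61 and 4.34 FPKM in saline 1 to 4 and 13.0 to 21.8 FPKM in LPS, with a median of 16.7 FPKM. Txnrd1 (chr10:82833951-82897712, plus strand), the cytosolic thioredoxin reductase, had 10.2, 5.40, 5.63 and 5.36 FPKM in saline 1 to 4 and 17.6 to 28.6 FPKM in LPS, with a median of 21.2 FPKM. Both had saline 1 as the highest saline library, still below every LPS library. Srxn1 was 3.33-fold higher in LPS (log2 fold change 1.57 ± 0.17 SE, limma adjusted p = 3.30e-05) and Txnrd1 3.24-fold higher (1.58 ± 0.19 SE, limma adjusted p = 5.50e-05).

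Nfe2l2, Gclm, Txnrd1 and Slc7a11 also overlap other annotated genes, on the same strand, the other strand or both. How reads in the shared stretches of these genes and of Sod1 were assigned is not given in the sources used here, so those reads are uncertain.

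FPKM is a level per length of gene, so the genes can be ranked within a group, though the order hangs on the lengths used. These were 3970 bases for Sod1, 10008 for Sod2, 3738 for Sod3 and 13922 for Slc7a11. Whether they match the transcripts in these cells was not tested. In saline the order by mean was Sod1, Cat, Nfe2l2, Sod3, Gclc, Gclm, Txnrd1, Srxn1, Sod2 and Slc7a11. The ranges of neighbours overlapped, except between Sod1 and Cat, between Gclc and Gclm and between Sod2 and Slc7a11. Saline 1 alone made the overlaps of Cat with Nfe2l2, of Sod3 with Gclc, of Gclm with Txnrd1 and of Txnrd1 with Srxn1, which were apart in the other 3 saline libraries. In LPS the order was Sod1, Nfe2l2, Sod2, Cat, Txnrd1, Srxn1, Gclc, Sod3, Gclm and Slc7a11, and the ranges of all neighbours overlapped. Sod2 went from rank 9 to rank 3 and Sod3 from rank 4 to rank 8.

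Markers of cells other than ECs were read in these libraries, and their counts stand against the 29.5% of all genes called higher and 23.7% lower. Of the 10 endothelial markers, 6 were lower in LPS and 0 higher, and their summed FPKM was 3276 to 5429 in saline and 1434 to 3382 in LPS. All 6 leukocyte markers were higher, with sums of 70.8 to 218 FPKM in saline and 569.8 to 1432 FPKM in LPS, led by Coro1a, the most abundant gene of the list. Of the macrophage and monocyte markers 7 of 8 were higher (375 to 1203 and 2060 to 4721 FPKM, led by Lyz2), and of the neutrophil markers 6 of 8 (68.9 to 1374 and 1277 to 6599 FPKM, led by S100a9). Erythroid markers were higher for 3 of 6 genes (6.36 to 25.6 and 21.0 to 74.3 FPKM, led by Hba-a1). Lower in LPS were 3 of 6 lymphocyte genes (24.3 to 134 and 11.7 to 46.7 FPKM, led by Cd79a), 3 of 10 epithelial genes (1151 to 2973 and 293 to 1023 FPKM, led by Sftpc), 4 of 7 fibroblast genes (36.1 to 62.4 and 19.3 to 45.8 FPKM, led by Col3a1) and 2 of 7 mural genes (25.6 to 122.5 and 30.9 to 57.2 FPKM). Only 4 of the 6 erythroid, 5 of the 6 lymphocyte and 6 of the 7 fibroblast genes were tested. The epithelial and mural counts lie near the share of all genes called lower. Acta2 was the most abundant mural gene in every library of this experiment but saline 2 and saline 4, where Pdgfrb was. Acta2 was not among those lower (log2 fold change 0.81, limma adjusted p = 0.230). Without saline 1 the mural sums of saline were 25.6 to 48.4 FPKM. Saline 1 gave the highest saline sum for all of these lists but the lymphocyte list. None of these markers was at 0 in all 10 libraries. The 10 antioxidant genes are expressed in many cell types, and the part of these cells in the changes of Sod2, Sod3, Nfe2l2 and its targets was not tested. In bulk samples, fewer cells of a type and less RNA per cell cannot be told apart.

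**Figure D3:**
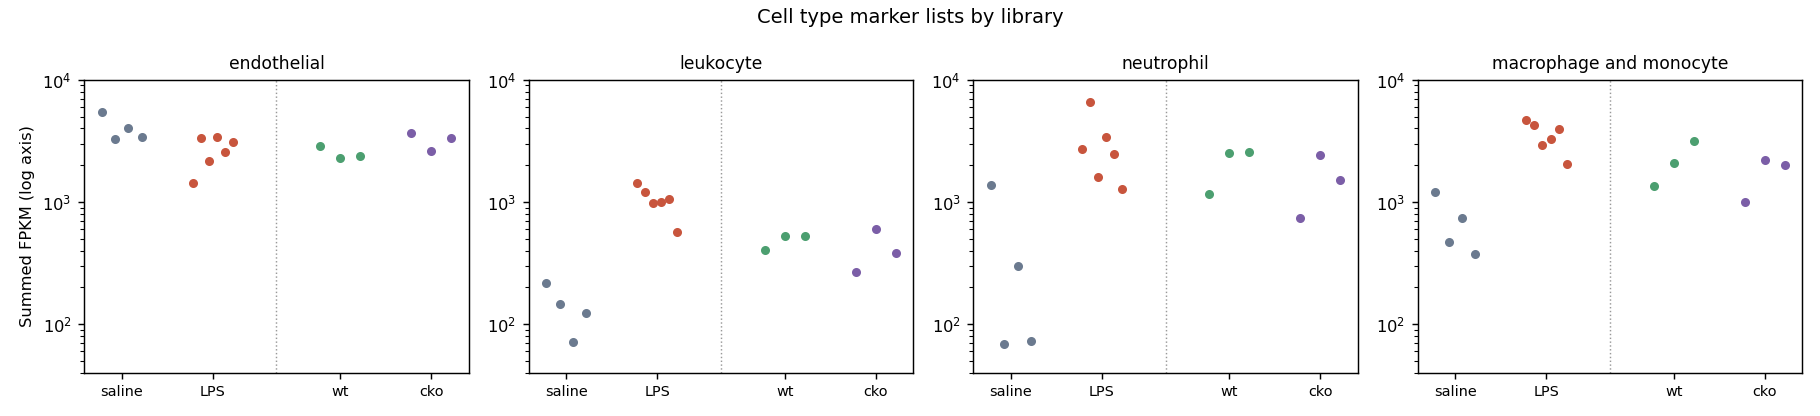
Summed FPKM of 4 cell type marker lists on a log axis, 1 point per library, with a dotted line between the separately scaled tables. The leukocyte and the macrophage and monocyte sums of the LPS libraries lie above all saline libraries, while the neutrophil sum of saline 1 (1374 FPKM) reaches the lowest LPS library (1277 FPKM) and the endothelial sums overlap.

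The wider antioxidant genes were read by lists, against 29.5% of all genes tested called higher and 23.7% lower. Of 25 other NRF2 target genes tested, 17 were higher in LPS, 2 lower and 6 did not pass, with a median log2 fold change of 1.22. Among those higher was Hmox1, heme oxygenase, with 6.92 to 12.8 FPKM in saline and 187 to 308 FPKM in LPS (log2 fold change 4.67, limma adjusted p = 1.34e-07). Gsr, glutathione reductase, and Fth1, the heavy chain of ferritin, were higher by 3.22 and 2.97, and Nqo1, a quinone reductase, by 1.11 on the log2 scale. Ephx1, an epoxide hydrolase, was lower (-2.53), with 125 to 200 FPKM in saline and 14.7 to 37.0 FPKM in LPS, and so was Slc6a9, a glycine transporter (-0.63). Under the other scalings of the libraries 15 to 23 of the 25 were higher, and the count of genes lower was 4 on quantile normalization and 1 on endothelial scaling, where Slc6a9 (-0.21) did not pass.

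Of 12 regulators and partners of NRF2 tested, 4 were higher, 2 lower and 6 did not pass, with a median log2 fold change of 0.32. These counts lie near the shares of all genes called. Sqstm1 (0.96), which draws KEAP1 into autophagy, Mafg (0.62), a small MAF partner, and Nfe2l1 (0.32), a relative of NRF2, were higher. Bach2 (-1.36), a repressor that competes for the same elements, and Btrc (-0.51), part of another ubiquitin ligase for NRF2, were lower. Bach2 had 1.57 to 5.48 FPKM in saline and 0.440 to 1.005 FPKM in LPS. Saline 3 was its lowest saline library, as for the lymphocyte markers, and the part of lymphocytes in its change was not tested. Among the scalings, the count of regulators higher ran from 1 on quantile normalization, where Nfe2l1 turned to -0.17, to 9 on endothelial scaling, and it was 0 with a log2 fold change limit of 1. It was 8 without saline 1 and 2 without saline 2, saline 3 or saline 4. On endothelial scaling Btrc was -0.01 and did not pass. Nfe2l1 did not pass on equal total reads (0.13), by limma-voom (0.27) or with the replicate block (0.29). Nor did it without saline 2, saline 3, saline 4 or LPS 4. Mafg did not pass on quantile normalization (0.36).

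Of 5 glutathione peroxidases only Gpx1 was higher, with 58.9 to 104 FPKM in saline and 400 to 880 FPKM in LPS (log2 fold change 3.19, limma adjusted p = 4.22e-06), and 4 did not pass. On endothelial scaling 3 of the 5 were higher, and 1 of the 5 was lower on equal total reads, on quantile normalization, by limma-voom and without LPS 2. Of 15 peroxiredoxins and thioredoxins, 9 were higher, 2 lower and 4 did not pass, with a median of 0.61. Prdx5 (3.42), Glrx (2.73) and Prdx1 (1.33) were higher, and Sesn1 (-1.47) and Txnip (-1.32), which binds and inhibits thioredoxin, were lower, both with a far higher value in saline 1 (93.8 FPKM for Sesn1 and 1895 FPKM for Txnip) than in the other saline libraries. Without saline 1 they were -0.80 and -0.74, and neither passed the test on endothelial scaling or with no filter on low values, nor did Txnip with the replicate block.

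Of 6 genes that bring copper or manganese to the dismutases, 3 were higher and 3 did not pass, with a median of 0.62. These were Atox1 (1.71), a copper chaperone, Slc39a14 (1.44), which carries manganese and zinc, and Slc31a1 (0.68), the copper importer. On endothelial scaling 5 of the 6 were higher, and on quantile normalization 1 was lower. Ccs, the chaperone that loads copper into SOD1, had a log2 fold change of 0.04 and did not pass (limma adjusted p = 0.867). Ccs was added to those named after its value was seen.

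**Figure D4:**
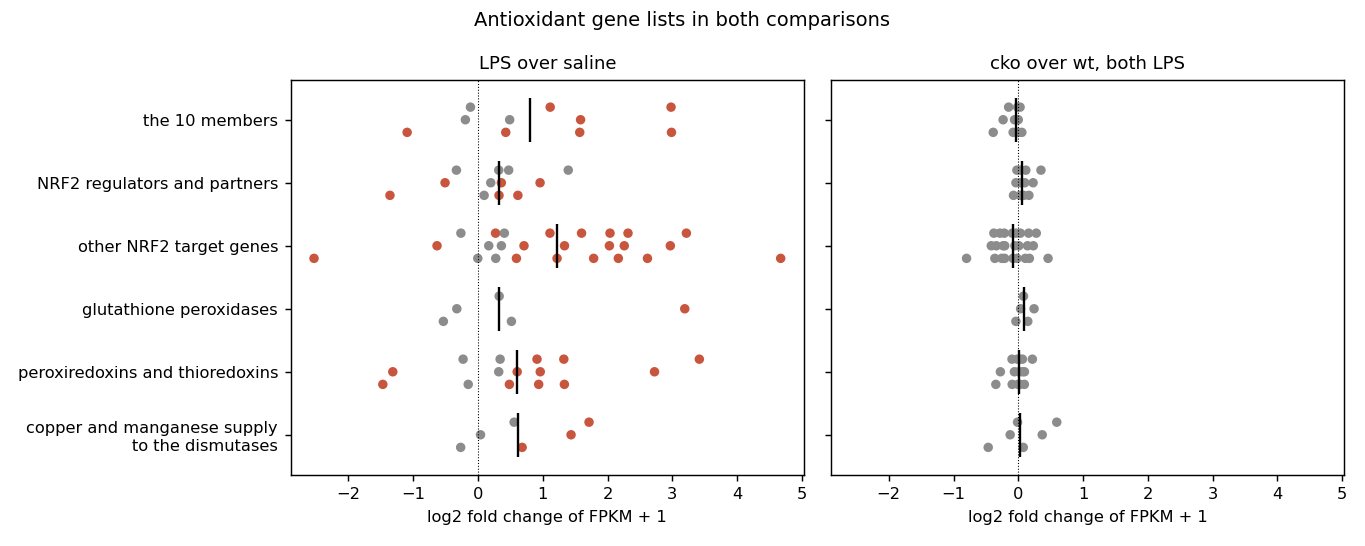
Log2 fold changes of FPKM + 1 for each gene of the antioxidant lists, LPS over saline on the left and cko over wt on the right on the same axis, with the list median as a line and genes with an adjusted p of 0.05 or less in red. Red points are seen only on the left, where they number 6 higher and 1 lower of the 10 members and 17 higher and 2 lower of the other NRF2 targets.

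The genes whose pattern over the 10 libraries was most like that of Sod2, by root mean square difference of centred log2(FPKM + 1) among 14892 genes, were Ifi211, an interferon-inducible gene (0.111), Eno1, a glycolytic enolase (0.128), and Ctsz, a cathepsin (0.138). For Sod3 they were Aldh1a1, a retinaldehyde dehydrogenase (0.118), Camk2n1, an inhibitor of CaM kinase II (0.143), and Col13a1, a membrane collagen (0.150), and for Cat Dhx32 (0.0434), Slc10a7 (0.0597) and Rnf26 (0.0617). This likeness is a description over libraries that share their depth and scaling.

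The second experiment compared ECs of Fgfr1 loxP/loxP and Fgfr1 iΔEC/iΔEC mice that had all received LPS, so that levels under LPS are compared. None of the 10 genes passed the test in cko against wt, as none of all 14945 genes did (0% called by limma after Benjamini-Hochberg adjustment). At an unadjusted p under 0.05 there were 661 genes, 0 of the 10 among them, and limma-voom on read numbers called 0 genes, with 619 at an unadjusted p under 0.05.

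Sod2 was 26.7, 32.3 and 26.6 FPKM in wt 1 to 3 and 21.1, 38.5 and 28.1 FPKM in cko 1 to 3, with a log2 fold change of -0.00 (95% CI -0.52 to 0.52). Sod1 was 62.9, 67.8 and 49.8 FPKM in wt and 59.7, 52.3 and 57.4 FPKM in cko (log2 fold change -0.08, 95% CI -0.43 to 0.27). Sod3 was 6.28, 7.13 and 8.40 FPKM in wt and 3.93, 6.64 and 8.07 FPKM in cko (log2 fold change -0.23, 95% CI -0.80 to 0.33). The groups overlapped for all 3 dismutases, with cko 1 the lowest of the 6 libraries in Sod2 and Sod3. The Sod2 to Sod1 ratio was 0.425 to 0.535 in wt and 0.354 to 0.737 in cko (difference in log2 ratio 0.08, two-sided exact permutation test, p = 0.8, where 3 against 3 cannot go below 0.1).

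Cat was the only one of the 10 genes with groups that did not overlap, as 10.1% of all genes tested had. It was 31.5, 31.7 and 33.8 FPKM in wt and 29.1, 29.5 and 28.5 FPKM in cko, all 3 cko libraries below all 3 wt libraries by a narrow margin. The log2 fold change was -0.15 (95% CI -0.36 to 0.06, limma adjusted p = 0.962).

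Nfe2l2 was 44.6, 43.1 and 50.0 FPKM in wt and 42.4, 43.5 and 51.8 FPKM in cko, with a log2 fold change of -0.00 (95% CI -0.30 to 0.29). The intervals of the targets were of the same order for Gclc (-0.33 to 0.31 around -0.01), Gclm (-0.17 to 0.28 around 0.05), Srxn1 (-0.35 to 0.24 around -0.06) and Txnrd1 (-0.26 to 0.32 around 0.03). Slc7a11 was far wider, at 3.39, 4.26 and 9.35 FPKM in wt and 2.19, 4.19 and 5.46 FPKM in cko, with a log2 fold change of -0.39 (95% CI -1.31 to 0.54). It was -0.02 without wt 3 and -0.10 without cko 1. Between libraries of the same number, Slc7a11, Sod3 and Cat were lower and Gclm was higher in cko all 3 times, and the other 6 genes went both ways. How many of all genes kept 1 direction was not counted, so this is not read as a result about these genes. The labels do not say that equal numbers are pairs. With the replicate number as a block the SE of Slc7a11 was 0.15 in place of 0.39, and it did not pass (limma adjusted p = 0.642). The Gclm to Gclc ratio was 0.521 to 0.703 in wt and 0.592 to 0.712 in cko (difference in log2 ratio 0.07, two-sided exact permutation test, p = 0.6).

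**Figure D5:**
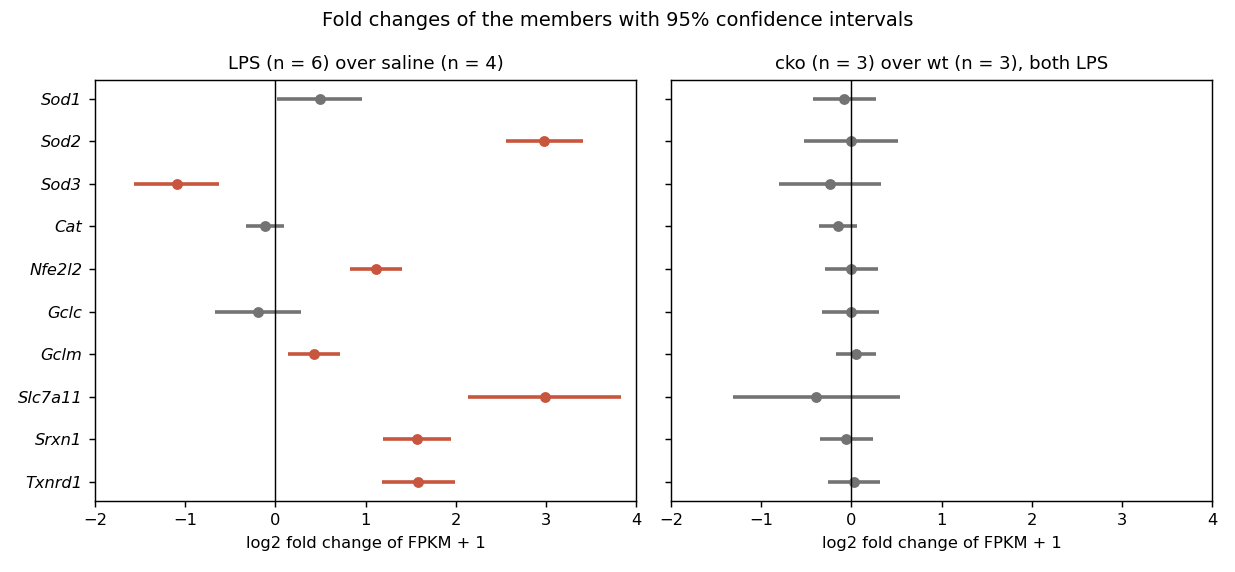
Log2 fold change of FPKM + 1 with its 95% confidence interval for each of the 10 genes, LPS over saline on the left and cko over wt on the right, in red where the limma adjusted p is 0.05 or less. On the left the intervals of 7 genes are red, of which Sod3 alone lies below 0, and on the right every interval crosses 0 and that of Slc7a11 is the widest.

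In the antioxidant lists 0 genes passed the test in cko against wt. The gene with the largest change in each list was Mafk, a small MAF protein (0.35), Gsta4, a glutathione transferase (-0.80), Gpx3, the secreted glutathione peroxidase (0.24), Glrx (-0.35) or Slc39a14 (0.59), each with a limma adjusted p of 0.962 or more. Hmox1 had 59.5, 79.2 and 97.6 FPKM in wt and 33.2, 98.9 and 81.5 FPKM in cko, Nqo1 had a log2 fold change of 0.14 and Keap1 of 0.03, and none passed. None of the cell type markers was called either. Cdh5 was 434, 305 and 415 FPKM in wt and 618, 439 and 580 FPKM in cko, without overlap (log2 fold change 0.50, limma adjusted p = 0.962), and summed endothelial markers were 2303 to 2891 FPKM and 2616 to 3642 FPKM. Pecam1 was 347 to 482 FPKM in wt and 400 to 514 FPKM in cko, and the groups overlapped for it and for Ptprc. Summed leukocyte markers were 402 to 527 FPKM in wt and 269.5 to 603 FPKM in cko, with cko 1 the lowest, and summed epithelial markers were 979.8 to 2972 FPKM and 498 to 1146 FPKM. Between libraries of the same number the endothelial sum was higher in cko each time, and the epithelial, neutrophil and mural sums were lower. Their part in the values of the 10 genes was not tested.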

How the data were processed

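The 10 genes and all lists were chosen with earlier results of these data known. The authors aligned the reads to GRCm38/mm10 with HISAT2 (version 2.0.5), counted them on genes with featureCounts (version 1.5.0-p3), tested them with DESeq2 and deposited FPKM beside gene lengths. Strandedness, annotation release and the treatment of multiply aligned reads are not given in the sources used here. FPKM times length came to whole reads, within 0.05, for 100.0% of values of up to 2000 reads, and the library sizes within the FPKM were median-of-ratios sizes. Reads are not independent molecules.

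Within each table, values scaled by median-of-ratios were put on a log2(FPKM + 1) scale and fitted in R 4.3.3 by limma 3.58.1 (lmFit, then eBayes with its trend option). Genes averaging 0.5 FPKM or more entered, 14893 and 14945 in number. A gene was called where its Benjamini-Hochberg p over all genes was 0.05 or less, whatever its fold change. For ratios within a library, the exact permutation test was two-sided. Named were the 10 genes, Fgfr1, Keap1, Hmox1, Nqo1, the 3 genes highest and lowest in each list among those called with groups apart, the largest change of each list in cko, the 3 genes most like Sod2, Sod3 and Cat, and the most abundant gene of each marker list. Pecam1, Cdh5 and Ptprc, as sort markers, and Ccs were added later.

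The labels do not say whether the replicate numbers pair the samples. In the second experiment the study used littermates, and deviations of same-numbered libraries correlated at 0.248, 0.178 and 0.187. These deviations were centred within groups of 3 libraries, so the correlations do not settle a pairing. The main fit, its intervals and the exact tests took no pairing into account, and the replicate block was an alternative. In the first experiment same-numbered libraries share only a number. In the cko and wt table, 11 symbols turned into dates were replaced by those of the first. Python 3.11.15, pandas 2.3.3, numpy 2.4.6 and matplotlib 3.10.9 were used for tables and figures. Alternatives were other scalings, pseudocount 0.1, no filter on low values, limma-voom on read numbers, a log2 fold change limit of 1, the replicate number as a block, and leaving out each library, and, chosen after seeing the data, saline 1 and 3 together.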

Additional observations from a re-analysis of the deposited data

Results flagged for a closer look

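Of 86 group values of 4 to 6 libraries, 15 had a highest or lowest library far from the others of its group, where about 4.3 would come up by chance, and 10 of the 15 lay in saline 1. Saline 1 was the highest saline library for Gclc (33.0 FPKM, the others 13.9 to 15.7), Srxn1 (7.32 FPKM, the others 4.10 to 4.61), Txnrd1 (10.2 FPKM, the others 5.36 to 5.63) and Slc7a11 (1.06 FPKM, the others 0.0260 to 0.0885). It was also the highest for Fgfr1 (5.52 FPKM), Fth1 (1167 FPKM), Gpx1 (104 FPKM), Sesn1 (93.8 FPKM) and Txnip (1895 FPKM), and the lowest for the ratio of Gclm to Gclc (0.331). Saline 3 was the lowest saline library for the lymphocyte and the fibroblast marker lists, at a mean log2(FPKM + 1) of 1.77 and 2.21. LPS 1 was the highest LPS library for Mafg (26.8 FPKM) and for the ratio of Sod2 to Sod1 (1.29), and LPS 2 for the ratio of Gclm to Gclc (0.966).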

How the results depend on the processing

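In LPS against saline, Sod2, Nfe2l2, Srxn1, Txnrd1 and Slc7a11 were called higher under every alternative run, and both ratios kept their direction and their side of the threshold. Of these genes, Slc7a11 passed the filter on low values only through the LPS libraries. With a log2 fold change limit of 1, 1768 genes were higher and 1011 lower, and Gclm (0.43) was not called. On endothelial scaling 7274 were higher and 798 lower, 0 of the 10 genes were lower, Sod1 was called (1.20), Sod3 was not (-0.42), Keap1 was (0.77), and Gclc (0.49) and Cat (0.58) turned. On equal total reads 2 of the 10 were lower, Gclm (0.25) was not called, Cat was (-0.31), and Keap1 turned (-0.10). On quantile normalization 2 were lower, Gclm (0.28) was not called, Cat was (-0.53), and Sod1 (-0.00049), Keap1 (-0.18) and Nfe2l1 (-0.17) turned. Limma-voom on read numbers called 4049 genes higher and 3998 lower. With the replicate number as a block, which pairs nothing in this experiment (same-number correlations 0.097, -0.162, -0.209 and -0.117), 3438 were higher and 2561 lower and Gclm (0.41) was not called. Leaving out each library, Gclc ran from -0.31 to 0.087, Gclm from 0.35 to 0.57 and Sod1 from 0.35 to 0.58, and with saline 1 and 3 both left out Gclc was 0.14. The cause of these changes was not tested.

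In cko against wt 0 genes were called under every alternative run, the replicate block included, which changed no call and left 1154 genes at an unadjusted p under 0.05. Values near 0 changed sign. Sod2 was 0.00063 as deposited. On equal total reads Gclm was -0.0076, Txnrd1 -0.036 and Keap1 -0.033. On endothelial scaling Gclm was -0.18, Txnrd1 -0.21, Keap1 -0.21, Nqo1 -0.058 and Gpx3 -0.0059. On quantile normalization Txnrd1 was -0.0052. Leaving out each library, the log2 fold changes ran from -0.21 to 0.011 for Sod1, -0.21 to 0.20 for Sod2, -0.42 to 0.017 for Sod3, -0.090 to 0.060 for Nfe2l2, -0.11 to 0.075 for Gclc, -0.15 to 0.0055 for Srxn1, -0.64 to -0.019 for Slc7a11, -0.039 to 0.11 for Txnrd1, -0.089 to 0.16 for Keap1 and -0.56 to 0.21 for Hmox1. The log2 ratio differences ran from -0.20 to 0.33 for Sod2 to Sod1 and from -0.056 to 0.16 for Gclm to Gclc. Each of the 10 genes had at least 242 reads in every library of that experiment.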
